A study of Mus musculus with 3 samples.

Results

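Genes of cholesterol synthesis and cholesterol export were examined in single-nucleus RNA sequencing (snRNA-seq) of the mouse lumbar spinal cord. The set held 7 of the 31040 genes counted, picked by gene symbol: Hmgcs1, Fdft1 and Sqle for synthesis, Srebf2 and Insig1 for its control, and Apoe and Abca1 for export. The tissue came from 12 mice aged 90 days, 3 in each of the groups female WT, male WT, female SOD1G93A and male SOD1G93A. The 6 SOD1G93A mice were B6.Cg-Tg(SOD1*G93A)1Gur/J, which carry a human SOD1 transgene with the G93A mutation of familial amyotrophic lateral sclerosis (ALS), and the 6 wild-type (WT) controls were C57BL/6J. The transgene has its own human promoter and is present in all cells of these mice, so that a change in 1 cell type cannot be assigned to mutant SOD1 made in that type. Nuclei from 4 mice, 1 of each sex and genotype, were marked with hashtags and run together, which gave the 3 pools A, B and C. Per the study, each hashtag marked the same group of sex and genotype in every pool. An effect of the hashtag therefore cannot be told apart from that of the group. The design asks which cell types carry these transcripts and whether their levels differed between the genotypes.

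Cells make cholesterol from acetyl-CoA in a long pathway, and neural cells do so locally because lipoproteins of the blood do not cross into the central nervous system. Oligodendrocytes need cholesterol for myelin, and astrocytes pass cholesterol to other cells on particles that hold apolipoprotein E. When membrane sterol is low, the factor SREBP2 moves to the nucleus and raises the synthesis genes, and when oxysterols are high the LXR receptors raise the export genes.

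Promoter sequences are shown for Hmgcs1, Apoe and Abca1, the 3 genes on which the genotype results below turn. The sequences are the 250 bases before the start of each gene in RefSeq on GRCm38.p6, which held 5 of the 7 genes. Fdft1 and Sqle were not matched. Each promoter was searched on both strands, without gaps, for the letters CACCCCA, the core of the sterol regulatory element (SRE), the kind of site that SREBP2 binds. It was also searched for its best match to the half-site AGGTCA repeated after a gap of 4 bases (DR4), the kind of site that LXR binds. Capitals mark the SRE core in Hmgcs1 (chr13:119690101-119690350, plus strand) and in Apoe (chr7:19699189-19699438, minus strand), and the best DR4 match in Abca1 (chr4:53159896-53160145, minus strand), where the capitals read the repeat on the opposite strand.
Hmgcs1: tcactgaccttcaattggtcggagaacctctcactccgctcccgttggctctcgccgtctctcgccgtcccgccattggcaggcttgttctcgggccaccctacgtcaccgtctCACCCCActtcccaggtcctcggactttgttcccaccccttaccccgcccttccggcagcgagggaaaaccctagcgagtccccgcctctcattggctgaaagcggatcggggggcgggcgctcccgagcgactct
Apoe: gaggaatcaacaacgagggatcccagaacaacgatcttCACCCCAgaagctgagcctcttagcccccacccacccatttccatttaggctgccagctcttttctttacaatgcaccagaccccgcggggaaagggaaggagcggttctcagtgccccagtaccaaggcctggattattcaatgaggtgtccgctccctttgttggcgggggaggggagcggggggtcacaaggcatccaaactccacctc
Abca1: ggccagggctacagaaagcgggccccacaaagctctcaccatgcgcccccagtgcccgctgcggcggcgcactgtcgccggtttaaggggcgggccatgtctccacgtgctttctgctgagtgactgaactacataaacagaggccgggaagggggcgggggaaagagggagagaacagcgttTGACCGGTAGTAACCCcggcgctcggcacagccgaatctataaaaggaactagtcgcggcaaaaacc

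The SRE core was found once in Hmgcs1, 136 to 130 bases before the start, once in Srebf2, which codes for SREBP2 itself, 161 to 155 bases before the start, and once in Apoe, 212 to 206 bases before the start. The windows of Insig1 and Abca1 and those at the other 2 Apoe starts did not hold these letters. Of the 32851 promoters in the table, 6.68% held the core. For the DR4, of which 12 bases were compared, Abca1 held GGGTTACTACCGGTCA with 9 bases matched, 67 to 52 bases before the start. Hmgcs1 and Insig1 also reached 9, as did 18.5% of all promoters. Srebf2 and the other 2 Apoe starts reached 8, and Apoe reached 7 at the start shown. At least 8 bases were matched in 70.6% of all promoters and at least 7 in 99.5%. A match describes the letters of these windows. It is neither a bound site nor a cause of the levels that follow.

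The table held 14662 nuclei and 206486779 unique molecular identifiers (UMIs, each marking 1 captured RNA molecule), with 548 to 2259 nuclei and 6411715 to 36668441 UMIs per mouse. The authors had sorted the nuclei into 10 cell types, and 15 barcodes were found in more than 1 pool. Marker genes were summed per mouse as UMIs per 1000000 UMIs of the type (CPM). In WT mice the median sum of the astrocyte markers in astrocytes was 7009 CPM, and every marker list but that of neurons was highest in its own type. The neuron list was highest in the type named Schwann and meningeal cells, at 3931 CPM against 1552 CPM in neurons. In those Schwann and meningeal nuclei the Schwann markers reached just 122 CPM, beside 3932 CPM of oligodendrocyte and 1870 CPM of astrocyte markers, and their median depth was 1584 UMIs per nucleus. Nuclei named microglia held 96.4 CPM of microglial and 2155 CPM of oligodendrocyte markers. Levels in the latter 2 types are therefore given under their labels only. Ependymal cells and fibroblasts had 93 and 46 nuclei in all, and each lacked nuclei in at least 1 mouse.

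Levels across cell types are given for the 6 WT mice as mean ± SD in CPM and are descriptions, since the types were drawn from expression. Among the synthesis genes, Hmgcs1, which codes for the cytosolic HMG-CoA synthase early in the pathway, had 88.6 ± 17.8 CPM in astrocytes (range 70.3 to 116) and 74.7 ± 18.8 CPM in oligodendrocytes (61.7 to 111). It was highest in Schwann and meningeal cells, at 199 ± 82.5 CPM, and lowest in neurons, at 27.2 ± 4.21 CPM. The ranges of all neighbours in this order overlapped. Fdft1, whose squalene synthase commits the pathway to sterols, was led by oligodendrocytes at 70.9 ± 13.6 CPM, followed by fibroblasts at 63.7 ± 92.1 CPM on 2 UMIs and astrocytes at 59.5 ± 9.73 CPM. In neurons it was 28.7 ± 5.16 CPM. Sqle, which codes for squalene epoxidase, an oxygen-dependent step that limits flux, gave 32.3 ± 7.81 CPM in oligodendrocytes and 31.6 ± 11.5 CPM in astrocytes. Schwann and meningeal cells held 52.0 ± 32.5 CPM and neurons 11.6 ± 2.5 CPM. For each synthesis gene, the ranges of astrocytes and oligodendrocytes overlapped.

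Of the regulators, Srebf2 ran from 67.3 ± 3.56 CPM in neurons to 133 ± 17.7 CPM in oligodendrocytes among the types with nuclei in every mouse, with astrocytes at 106 ± 14.2 CPM. Insig1, whose protein holds the SREBP complex in the endoplasmic reticulum when sterols are plentiful, was 111 ± 26.2 CPM in Schwann and meningeal cells, 41.2 ± 12.7 CPM in astrocytes, 24.2 ± 3.1 CPM in oligodendrocytes, 8.97 ± 1.91 CPM in neurons and 6.11 ± 1.78 CPM in motor neurons.

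Among the export genes, Apoe was highest in astrocytes and Abca1 in ependymal cells. Apoe, which codes for the main apolipoprotein of the central nervous system, was 1491 ± 446 CPM in astrocytes (1026 to 2067), 1308 ± 480 CPM in Schwann and meningeal cells and 639 ± 223 CPM in endothelial cells. It was 149 ± 24.6 CPM in oligodendrocytes, 75.5 ± 23.6 CPM in microglia, 54.7 ± 14.4 CPM in neurons and 32.4 ± 25.9 CPM in motor neurons. All neighbouring ranges overlapped, while those of astrocytes and oligodendrocytes did not. Abca1, the transporter that loads cholesterol onto apolipoproteins, was 260 ± 102 CPM in ependymal cells on 38 UMIs, 167 ± 14.7 CPM in astrocytes and 62.7 ± 20.2 CPM in endothelial cells. In oligodendrocytes it was 48.9 ± 5.39 CPM, above and apart from microglia at 29.1 ± 3.36 CPM, and neurons were lowest at 6.82 ± 1.44 CPM.

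**Figure D1:**
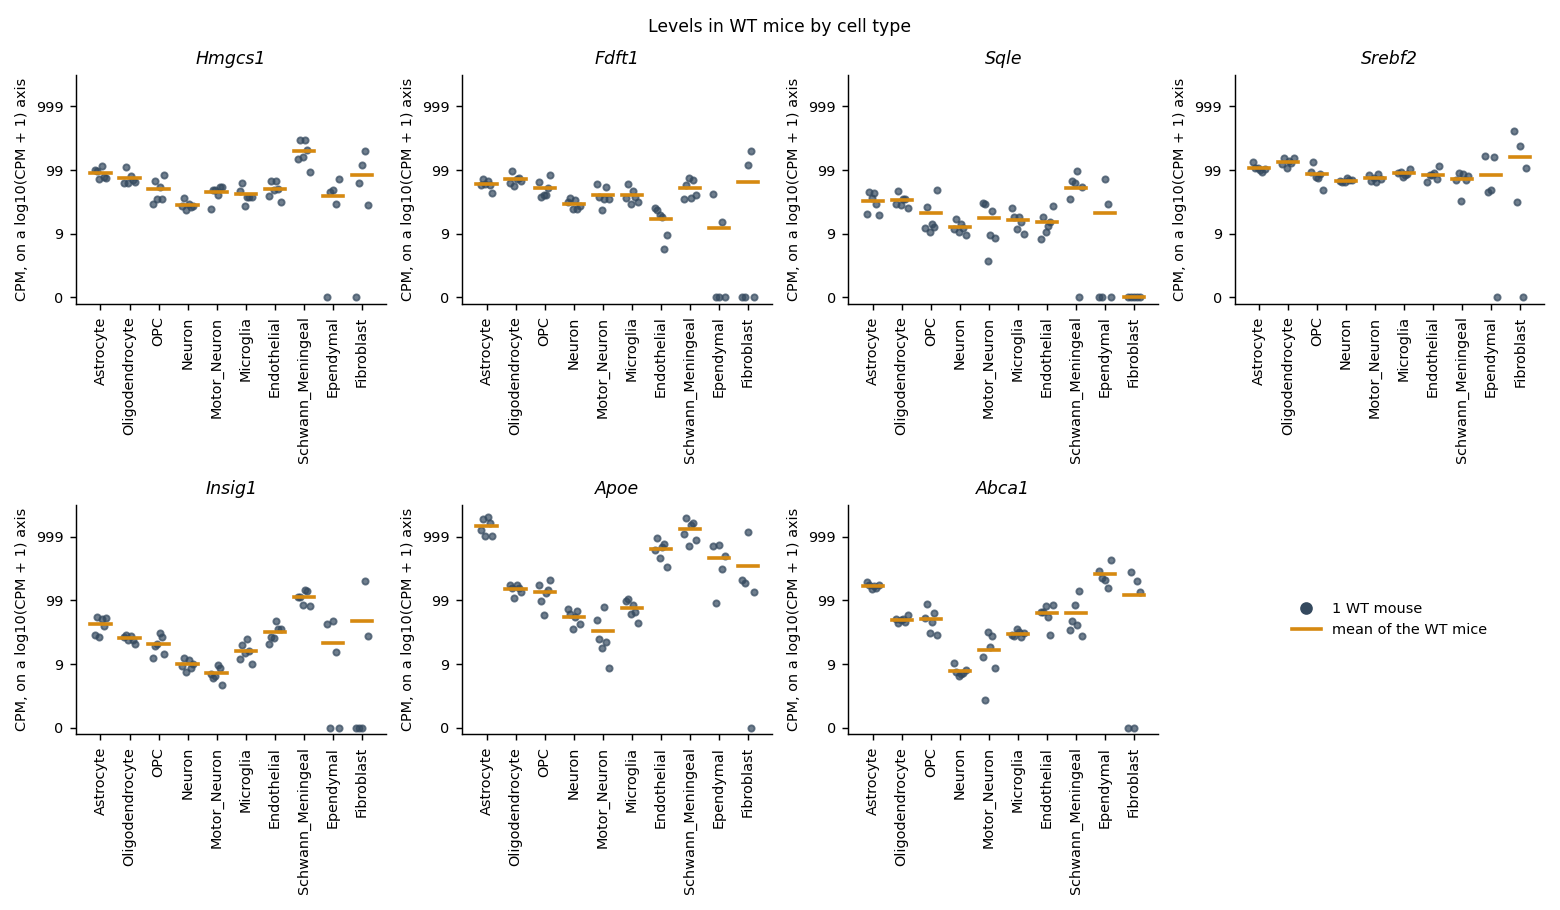
Level of each of the 7 genes in WT mice by cell type, as CPM on a log10(CPM + 1) axis, where each point is 1 mouse and the orange line is the mean. Apoe runs from 32.4 CPM in motor neurons to 1491 CPM in astrocytes, whereas Srebf2 lies between 67.3 and 156 CPM in all types.

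The share of nuclei with a UMI of a gene depends on depth and on free RNA, so neurons, where the levels of the export genes were low, were taken as the comparison. Neurons can make Apoe, in particular under stress, so their share is not a measure of free RNA alone. At least 1 Apoe UMI was seen in 93.6% of 1555 astrocyte nuclei at a median depth of 5338 UMIs and in 51.9% of 8800 neuronal nuclei at a median of 12864.5 UMIs. After each nucleus was thinned to 2000 UMIs the shares were 81.9% and 13.1%, and oligodendrocytes gave 25.4%. For Abca1 the thinned shares were 29.5% in astrocytes, 9.02% in oligodendrocytes and 1.24% in neurons, against 55.9%, 23.8% and 8.52% before thinning. For Hmgcs1 they were 19.0%, 14.9% and 5.64%, against 40.8%, 34.9% and 30.8%. Thinning left out 76 astrocyte, 102 oligodendrocyte and 97 neuronal nuclei that had fewer UMIs.

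Similar patterns across the 8 types with nuclei in every mouse were sought among 11528 genes, using Pearson's r over mean log2 CPM. Hmgcs1 was most like S100b, Hsd17b7 and Tkt (each r = 0.98). Of these, Hsd17b7 codes for a later enzyme of sterol synthesis. Apoe was most like Atp1b2, Dbi and Tril (each r = 0.99), Abca1 like Spry2, P4ha1 and Ifrd1 (r = 0.94, 0.94 and 0.91), and Srebf2 like Mink1, Slc20a2 and Cipc (r = 0.96, 0.94 and 0.93). Fdft1 was most like Shisa4, Ddr1 and Kif1b (r = 0.96, 0.96 and 0.95), Sqle like Gabbr1, Gprc5b and Phgdh (r = 0.95, 0.94 and 0.94), and Insig1 like Epm2aip1, Pgp and Smim20 (each r = 0.98). Among the 7 genes themselves, the closest pair was Insig1 and Apoe (r = 0.92) and the least alike was Srebf2 and Insig1 (r = 0.22). With 8 points that share libraries and depth, these values are descriptions.

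In astrocytes, SOD1G93A mice had higher Apoe and higher Hmgcs1 than WT mice, while the other 5 genes did not pass the test. Values here are normalised CPM, that is CPM after scaling of the library sizes, and tests are from limma on UMIs summed per mouse, with sex, genotype and pool in the model and false-discovery rates (FDR) adjusted over all genes of the type. Apoe had a lowest, median and highest value of 1687, 2042 and 3039 normalised CPM in the 6 SOD1G93A mice and of 1142, 1537 and 2145 in the 6 WT mice. The groups overlapped, but within every pool and sex the SOD1G93A mouse was higher, in 6 of 6 pairs. The log2 fold change was 0.48 (SE 0.12, 95% confidence interval 0.24 to 0.73, limma adjusted p = 0.040). Hmgcs1 had 110, 126 and 153 normalised CPM in SOD1G93A mice against 78.7, 88.5 and 121 in WT mice. It was also higher in 6 of 6 pairs with overlap of the groups, and its log2 fold change was 0.47 (SE 0.13, interval 0.20 to 0.75, limma adjusted p = 0.078). These 2 of 7 genes stand beside 2.29% of the 9347 genes tested in astrocytes that passed FDR < 0.1 in either direction and 1.38% that were higher in SOD1G93A.

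The other synthesis genes did not pass the threshold. The log2 fold change of Fdft1 was −0.17 (interval −0.52 to 0.17, limma adjusted p = 0.69) and that of Sqle was 0.06 (−0.46 to 0.57, 0.95). For the regulators it was −0.21 for Srebf2 (−0.50 to 0.08, limma adjusted p = 0.53), with 5 of 6 pairs lower, and 0.19 for Insig1 (−0.25 to 0.63, 0.75), which ran from 0.045 without female WT C to 0.45 without female WT B. Without single mice, Fdft1 ran from −0.26 to −0.06 and Srebf2 from −0.30 to −0.11. Abca1, the partner of Apoe in export, had 137, 167 and 217 normalised CPM in SOD1G93A mice and 166, 170 and 199 in WT mice, and the WT range lay inside that of SOD1G93A. Its log2 fold change was −0.00 (interval −0.25 to 0.24, limma adjusted p = 0.99).

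**Figure D2:**
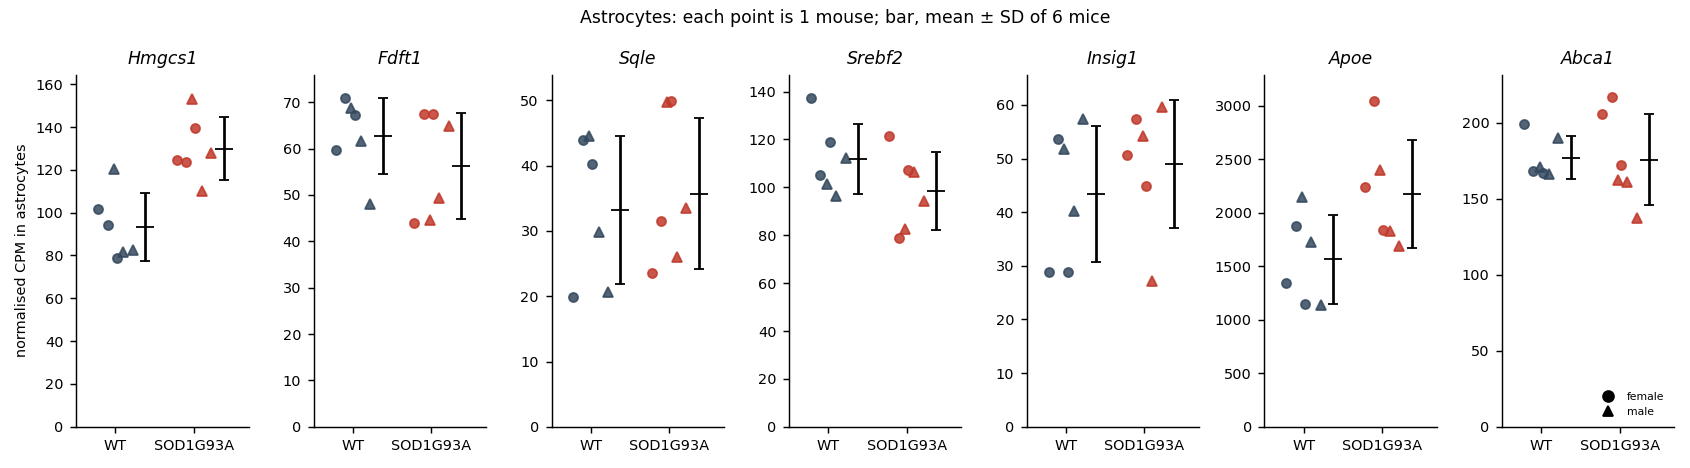
Normalised CPM of the 7 genes in the astrocytes of each of the 12 mice, with SOD1G93A beside WT, circles for females, triangles for males, and a bar for the mean ± SD of 6 mice. For Apoe the medians are 2042 and 1537 and for Hmgcs1 126 and 88.5, with overlap of the genotypes in both, and for Abca1 they are 167 and 170.

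Both calls depended on the model and on single mice, and neither was reached with the fixed sub-cluster weights described below. Without the pool term the log2 fold changes stayed at 0.48 and 0.47, but the limma adjusted p was 0.29 for Apoe and 0.14 for Hmgcs1. Neither gene passed without female SOD1G93A B, female WT A or C, male SOD1G93A A or C, or male WT B or C, where the limma adjusted p lay between 0.105 and 0.182 for Apoe and between 0.157 and 0.238 for Hmgcs1, and without female SOD1G93A C just Apoe passed (0.096 against 0.24). Within a mouse, the genotype effect of Apoe exceeded that in oligodendrocytes by 0.62 (log2, SE 0.20, unadjusted p = 0.0081) and that in neurons by 0.49 (SE 0.18, 0.018), and that of Hmgcs1 by 0.51 (0.019) and 0.43 (0.011). By limma with adjustment over all genes these differences had p of 0.55, 0.31, 0.61 and 0.28. Thus 0 of 7 genes were called to differ between cell types, where 0.0228% and 0.432% of genes were. Insig1, not called in astrocytes, had a difference from oligodendrocytes of 0.66 (limma unadjusted p = 0.024, adjusted p = 0.63). Oligodendrocytes minus neurons gave −0.54 for Insig1 and −0.43 for Abca1 (limma unadjusted p = 0.021 and 0.037). Neither was called there, where 0% of genes were. In edgeR and DESeq2 fits of the astrocytes Apoe and Hmgcs1 were called, beside 194 and 146 of 9347 genes tested. With no filter on low counts and with nuclei weighted equally Apoe was called but Hmgcs1 was not (limma adjusted p = 0.21 and 0.19). Over all genes, those settings called 190 of 21311 and 298 of 9347.

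Other measures moved with genotype in the astrocyte nuclei. The median mitochondrial share was 1.12% to 2.33% of UMIs in SOD1G93A mice against 0.570% to 1.31% in WT mice. The 6 astrocyte markers summed to 7645 to 9894 CPM in SOD1G93A and 6362 to 8021 CPM in WT mice, the 5 oligodendrocyte markers to 859 to 1608 and 545 to 1000 CPM, and the 4 neuron markers to 418 to 1129 and 362 to 649 CPM, with none of these genes at 0. The astrocyte markers did not move together. Aqp4 had 1107 to 1488 CPM in SOD1G93A and 583 to 776 CPM in WT mice and Gfap 485 to 696 and 194 to 304 CPM, without overlap. The ranges of Slc1a2, Gja1, Aldh1l1 and Slc1a3 overlapped, with medians of 6051 and 5242, 823 and 559, 74.2 and 81.3, and 311 and 325 CPM. The part of these measures in the changes of Apoe and Hmgcs1 was not tested. Nuclei numbered 45 to 153 per SOD1G93A mouse and 106 to 250 per WT mouse, and the median over mice of the depth per nucleus was 5408 and 5096 UMIs.

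Of 58 further genes fixed in lists of the same pathway, 46 were tested in astrocytes and 1 was called, in the export list, beside 2.29% of all genes tested, so that the lists as a whole held no more calls than that background. The called gene was Clu (clusterin, also called apolipoprotein J), which was separate between the groups, with 308, 385 and 530 normalised CPM in SOD1G93A and 140, 223 and 256 in WT mice. Its log2 fold change was 0.91 (SE 0.12, limma adjusted p = 1.3e-04), higher in 6 of 6 pairs, and its effect exceeded that in neurons by 0.99 (limma adjusted p = 0.0038) and that in oligodendrocytes by 0.71 (0.55), where just the former was called. Counts of tested and called genes were 14 and 0 for synthesis, 7 and 0 for regulators, 7 and 1 for export and lipoproteins, 13 and 0 for uptake and transport, and 5 and 0 for esters and oxysterols. The median log2 fold change was 0.05 over the 46 genes and 0.36 over the export list, beside 0.02 over all genes tested. Next by unadjusted p came Npc2, which moves cholesterol out of lysosomes, at 0.53 (limma adjusted p = 0.23), and Apod, another apolipoprotein, at 0.46 (0.24). Idi1, a synthesis enzyme, had 0.34 (0.43), and Srebf1, which codes for the related factor SREBP1, had 0.35 (0.45).

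**Figure D3:**
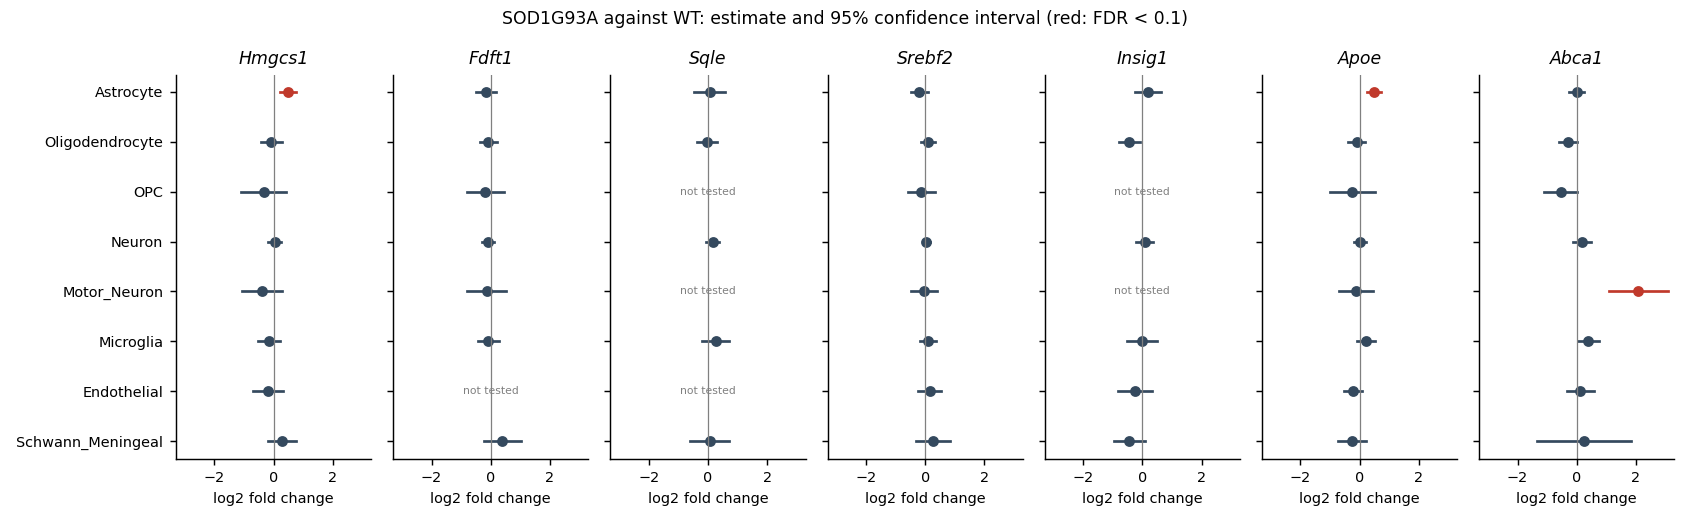
Log2 fold change of SOD1G93A over WT, with its 95% confidence interval, for each of the 7 genes in 8 cell types, with the calls at FDR < 0.1 in red. Red points are Apoe (0.48) and Hmgcs1 (0.47) in astrocytes and Abca1 (2.09) in motor neurons.

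The authors had divided the astrocytes into sub-clusters 0 to 4, and Apoe differed widely between them. In WT mice it was 3449 ± 753 CPM in sub-cluster 4, 3051 ± 836 in sub-cluster 3 and 2350 ± 526 in sub-cluster 0, apart from 527 ± 131 in sub-cluster 1 and 396 ± 142 in sub-cluster 2. In SOD1G93A mice the order of the low and high sub-clusters was alike, with 540 ± 234 CPM in sub-cluster 1 and 3618 ± 894 CPM in sub-cluster 3. Hmgcs1 was lowest in the same sub-clusters of WT mice, at 39.1 ± 13.1 CPM in sub-cluster 2 and 63.5 ± 19.5 CPM in sub-cluster 1, against 155 ± 44.6 CPM in sub-cluster 3. Abca1 ran from 88.2 ± 24.5 CPM in sub-cluster 2 to 259 ± 102 CPM in sub-cluster 3, and Srebf2 stayed within 90.1 to 120 CPM.

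The share of astrocyte nuclei in these sub-clusters differed between the genotypes. Sub-cluster 1, low in Apoe, held 26.9% to 42.6% of the nuclei of WT mice (median 38.2%) and 4.81% to 21.6% of those of SOD1G93A mice (median 14.4%), lower in 6 of 6 pairs without overlap. Sub-cluster 3, high in Apoe, held 7.56% to 12.0% in WT (median 8.65%) and 13.4% to 31.1% in SOD1G93A mice (median 17.5%), higher in 6 of 6 pairs without overlap. The shares of sub-clusters 0, 2 and 4 overlapped. Sub-clusters were drawn from expression of the same nuclei, so that no test was made, and a change of level that moves nuclei between sub-clusters cannot be told apart from a change in the nuclei sampled. Median mitochondrial shares in WT and SOD1G93A mice were 0.312% and 0.337% in sub-cluster 1, 1.40% and 2.95% in sub-cluster 3 and 6.62% and 5.78% in sub-cluster 4.

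Within sub-clusters, 0 of 22 tests of the 7 genes were called by limma, edgeR or DESeq2, beside 0.0595% of all genes by limma over the same sub-clusters, and 2 had an unadjusted p under 0.05, as did 6.07% of all genes. The log2 fold change of Apoe was 0.04, −0.04, 0.29, 0.28 and −0.10 in sub-clusters 0 to 4, the value for sub-cluster 3 having an unadjusted p of 0.025 (limma adjusted p = 0.55). Hmgcs1 had 0.05, 0.16 and 0.16 in sub-clusters 0, 1 and 3. In sub-cluster 4 it had 0.84 (SE 0.32, unadjusted p = 0.014, limma adjusted p = 0.98), where 298, 329 and 375 normalised CPM in SOD1G93A mice stood apart from 0, 157 and 259 in WT mice. These values rest on few nuclei, 5 to 30 per SOD1G93A mouse and 3 to 25 per WT mouse. UMIs of all genes there were 13170 to 282014 and 9427 to 151246. The part of this sampling in the separation was not tested. When the sub-clusters of each mouse were averaged with the same weights in all mice, an alternative chosen after seeing the data, Apoe had 1385, 1943 and 2449 CPM in SOD1G93A mice and 1275, 1760 and 2194 CPM in WT mice. Its log2 fold change was then 0.07 (limma adjusted p = 0.95), against 0.57 (0.052) for the same scale without these weights. For Hmgcs1 it was 0.30 against 0.56 (limma adjusted p = 0.91 and 0.062), and for Clu 0.45 against 0.98 (0.80 and 3.9e-04). Of all genes, 1 was called with fixed weights and 190 without. Sub-clusters 1, 2 and 4 had fixed weights of 25.1%, 17.8% and 11.5%. They held as few as 5, 3 and 3 nuclei in a mouse. The SE of Clu was 0.15 with these weights and 0.12 without. That of Apoe was 0.082 with them and 0.129 without, and that of Hmgcs1 0.137 and 0.141. As the sub-clusters were drawn from expression, fixing them can also take out a change of level. The fall in calls therefore cannot tell make-up from level.

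**Figure D4:**
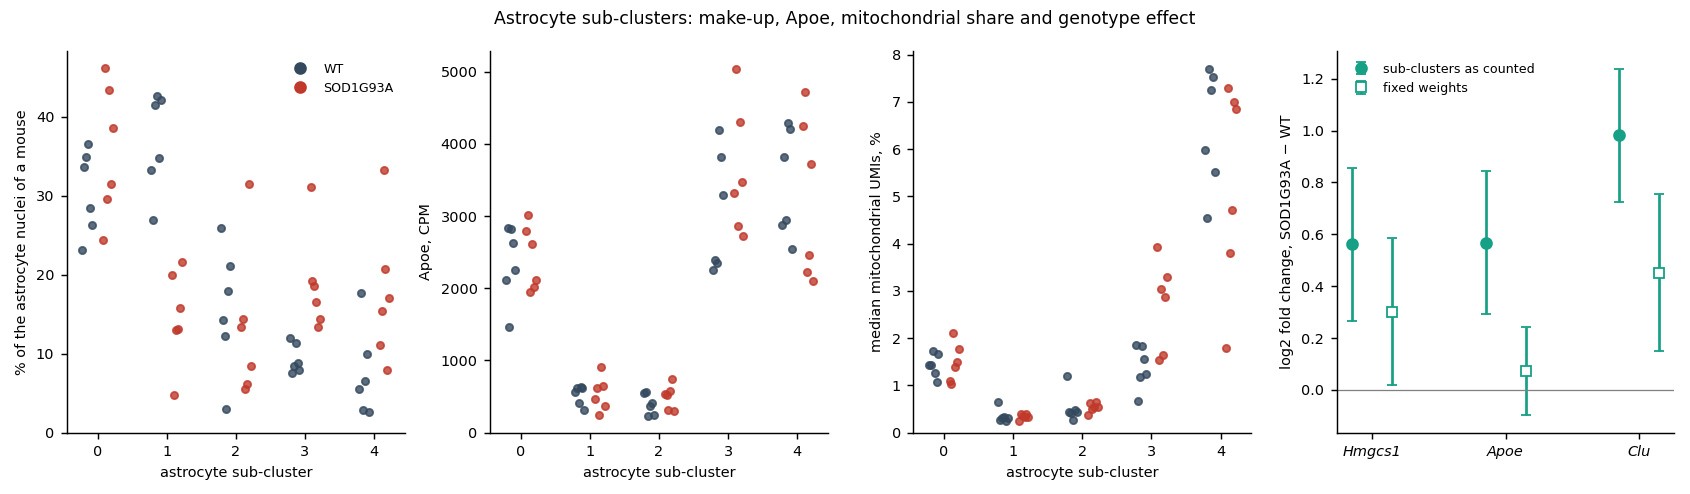
Astrocyte sub-clusters 0 to 4 in the 12 mice, shown as percent of astrocyte nuclei, Apoe CPM and median mitochondrial percent per mouse, and the log2 fold change of Hmgcs1, Apoe and Clu as counted and with fixed sub-cluster weights with 95% confidence intervals. Sub-cluster 1 has a median of 38.2% in WT and 14.4% in SOD1G93A mice, and the Apoe log2 fold change is 0.57 as counted and 0.07 with fixed weights.

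In oligodendrocytes none of the 7 genes was called for genotype by limma, edgeR or DESeq2, where 0.0475% of 10521 genes passed in limma, and 1 of 7 had an unadjusted p under 0.05, as did 4.77% of all genes. This was Insig1, with 10.7, 18.1 and 25.3 normalised CPM in SOD1G93A mice and 20.1, 24.9 and 27.6 in WT mice. The SOD1G93A mouse was lower in 6 of 6 pairs with overlap of the groups, and the log2 fold change was −0.44 (SE 0.17, unadjusted p = 0.019, limma adjusted p = 0.98). Abca1 had −0.29 (interval −0.59 to 0.01, unadjusted p = 0.056), with 24.4 to 48.1 against 43.6 to 60.4 normalised CPM, and −0.16 without female SOD1G93A B. With fixed sub-cluster weights, the alternative chosen after seeing the data, it had −0.06 against −0.28 for the same scale without them, and Insig1 had −0.46 against −0.49. On that scale Apoe changed sign, from −0.13 to 0.22 with fixed weights, and Hmgcs1 had −0.21 against −0.03, with none of these called. Sub-clusters 3 and 4 held as few as 1 nucleus in a SOD1G93A mouse. The SE of Apoe was 0.195 with these weights and 0.128 without. The synthesis genes had intervals around 0, with −0.07 for Hmgcs1 (−0.43 to 0.28), −0.08 for Fdft1 (−0.36 to 0.20) and −0.04 for Sqle (−0.38 to 0.30). Srebf2 had 0.10 (−0.15 to 0.35) and Apoe −0.10 (−0.38 to 0.18).

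Of the further pathway genes, 48 were tested in oligodendrocytes and 0 were called by the 3 tools, beside 0.0475% of all genes by limma. Of these 48, 1 had an unadjusted p under 0.05, as did 4.77% of all genes. It was Cyp7b1, an oxysterol hydroxylase, at a log2 fold change of −0.67 (unadjusted p = 0.031), followed by Mvd, an enzyme of the mevalonate pathway, at −0.60 (0.069) and lower in 6 of 6 pairs. Nceh1, Ggps1 and Mbtps2 came next at 0.22, 0.22 and −0.22. Medians of the log2 fold change were −0.04 over the 48 genes and 0.007 over all genes tested. The synthesis list had a median of −0.13, with 4 of 16 genes above 0, and the export list 0.07, with 5 of 6. Over all genes tested, 5432 of 10521 were above 0. Across oligodendrocyte sub-clusters 0 of 23 tests of the 7 genes were called by the 3 tools, beside 0.0579% of all genes by limma, and 2 had an unadjusted p under 0.05, as did 4.93% of all genes. These were Hmgcs1 in sub-cluster 0 at −0.54 (0.028) and Insig1 in sub-cluster 1 at −0.80 (0.039). In WT mice sub-cluster 3 led for both export genes, with 456 ± 367 CPM of Apoe (231 to 1201) and 104 ± 29.7 CPM of Abca1. Sub-cluster 3 held 3.8% to 13.1% of oligodendrocyte nuclei in WT mice (median 8.37%) and 0.633% to 9.09% in SOD1G93A mice (median 2.22%), with overlap and higher in SOD1G93A in 1 of 6 pairs.

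In motor neurons Abca1 was higher in SOD1G93A mice, and its UMIs were concentrated in males. This type had 23 nuclei from SOD1G93A mice (1 to 6 per mouse) and 44 from WT mice (4 to 11), and 5 of the 7 genes passed the filter on low counts. Male SOD1G93A mice had 170, 141 and 236 normalised CPM in pools A, B and C, on 69, 35 and 74 UMIs. Female SOD1G93A mice had 41.0, 4.75 and 33.9 normalised CPM on 7, 1 and 1 UMIs. The male WT mice had 18.9, 30.0 and 9.15 and the female WT mice 13.1, 1.92 and 35.9 normalised CPM. All 3 male SOD1G93A mice were above every other mouse, while the females of the genotypes overlapped. The log2 fold change was 2.09 (SE 0.49, interval 1.07 to 3.1, limma adjusted p = 0.046), higher in 5 of 6 pairs, and 3.07% of 5118 genes tested in motor neurons passed in either direction and 1.43% were higher.

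The motor neuron call depended on the tool, the model and single mice. It was not reached by edgeR (log2 fold change 1.82, adjusted p = 0.14), without the pool term (2.14, limma adjusted p = 0.106), or with nuclei weighted equally (2.30, 0.32). It was lost without female SOD1G93A A (1.57, limma adjusted p = 0.30), female SOD1G93A C (2.07, 0.13), female WT B (1.43, 0.107), male SOD1G93A C (1.96, 0.113) and male WT C (1.7, 0.109). The genotype effect in males exceeded that in females by 2.29 (SE 0.97, unadjusted p = 0.028, limma adjusted p = 0.95), and the effect exceeded that in other neurons by 1.57 (SE 0.49, limma adjusted p = 0.29), where 0.117% of genes passed. Hmgcs1, Fdft1, Apoe and Srebf2 had log2 fold changes of −0.39, −0.14, −0.12 and −0.04 in motor neurons, with limma adjusted p of 0.60 to 0.96.

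By nucleus, 5 of the 16 male SOD1G93A motor neuron nuclei held 141 of the 178 Abca1 UMIs. The limit of 20 UMIs that set these nuclei apart was chosen after the values were seen. They had 34, 28, 24, 35 and 20 UMIs and came from all 3 male SOD1G93A mice. The other 11 nuclei held 37 UMIs, at 52.2 CPM, beside 19.6 CPM in 20 male WT, 20.2 CPM in 7 female SOD1G93A and 12.5 CPM in 24 female WT nuclei, where no nucleus had more than 8. The 3 motor neuron markers were Slit3, Prph, which codes for the neurofilament protein peripherin, and Chat, which codes for the acetylcholine-making enzyme. In the 5 nuclei Slit3 had 27, 31, 20, 25 and 13 UMIs, Prph 10, 27, 1, 14 and 1, and Chat 4, 11, 5, 1 and 0. Against the other 11 nuclei, Prph was at 186 and 53.6 CPM, Chat at 73.7 and 134 CPM and Slit3 at 407 and 1019 CPM, so that the markers did not all differ in the same direction. Their sum was 667 CPM in the 5 and 1206 CPM in the other 11, and that of the astrocyte markers was 80.7 and 81.8 CPM. Of the markers of other cell types, the sums in the 5 and the 11 nuclei were 1246 and 1337 CPM for neurons, 818 and 1038 CPM for oligodendrocyte precursor cells (OPCs), 340 and 405 CPM for oligodendrocytes and 21.1 and 53.6 CPM for microglia. Higher sums in the 5 nuclei were those of the Schwann markers, 80.7 and 42.3 CPM, the ependymal markers, 10.5 and 5.64 CPM on 3 and 4 UMIs, and the fibroblast markers, on 4 UMIs and 1 UMI, while the endothelial markers had 1 and 3 UMIs. Their part in the Abca1 values was not tested.

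**Figure D5:**
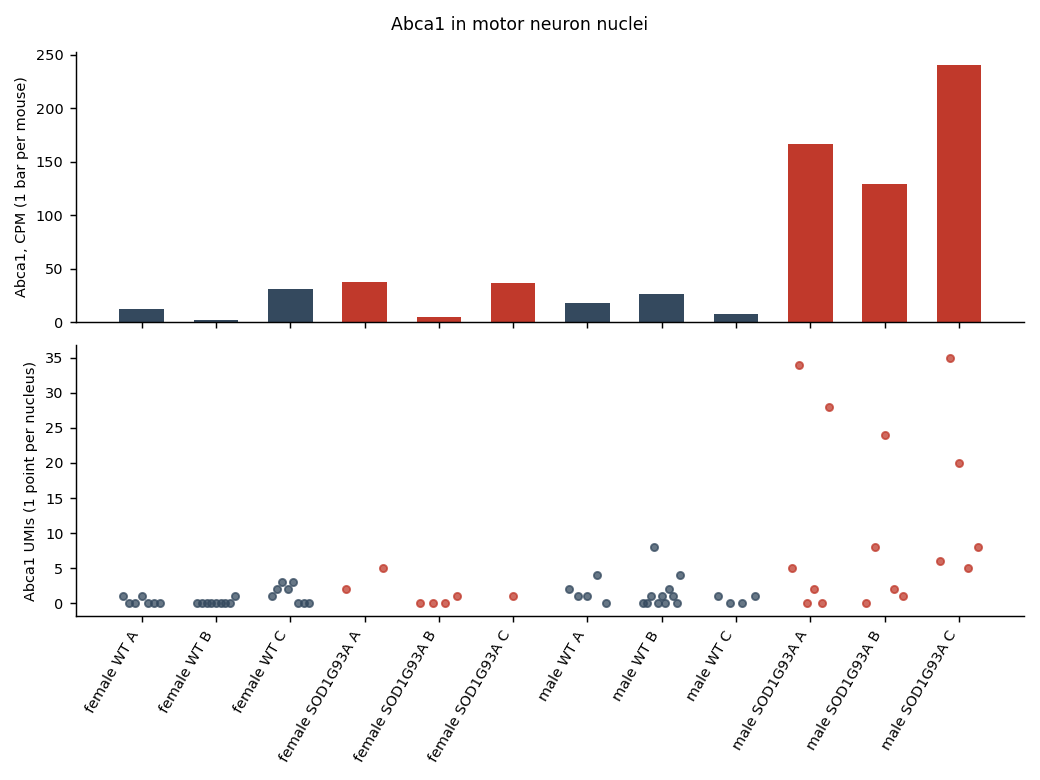
Abca1 in motor neurons, as CPM per mouse and as UMIs in each nucleus, by sex and genotype. The 3 male SOD1G93A mice lie at 129 to 241 CPM, above all other mice, and 5 of their 16 nuclei hold 20 or more UMIs.

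In the 9 cell types where at least 1 of the genes was tested there were 51 tests of the 7 genes for genotype, with 3 called, beside 0.573% of all genes over the same types. An unadjusted p under 0.05 was reached by 5 of them and by 7.19% of all genes. Outside astrocytes, oligodendrocytes and motor neurons 0 were called by limma, edgeR or DESeq2. The share of all genes called by limma was 0.0759% in microglia, 0.0131% in endothelial cells, 0% in ependymal cells, 0.0411% in OPCs, 0.0255% in neurons and 0.036% in Schwann and meningeal cells. No gene of the set passed the filter in fibroblasts and just Apoe did in ependymal cells. Abca1 in microglia came nearest, with a log2 fold change of 0.39 (limma unadjusted p = 0.035, adjusted p = 0.58). Its range was 32.2 to 46.2 normalised CPM in SOD1G93A and 25.9 to 37.0 in WT mice, with overlap. In neurons the 7 log2 fold changes lay between −0.10 and 0.18.

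For sex, 0 of 51 tests of the 7 genes were called by the 3 tools, beside 0.159% of all genes by limma. An unadjusted p under 0.05 was reached by 3 of them and by 5.54% of all genes. Apoe in microglia had a female over male log2 difference of 0.50 (limma unadjusted p = 0.0030, adjusted p = 0.30). Sqle in neurons had 0.26 (limma unadjusted p = 0.031), and Abca1 in motor neurons had −1.47 (limma unadjusted p = 0.011, adjusted p = 0.78). For the sex difference of the genotype effect 0 of 51 were called by the 3 tools, beside 0.00585% of all genes by limma. An unadjusted p under 0.05 was reached by 1 of 51, that of Abca1 in motor neurons, and by 3.12% of all genes. For Apoe in astrocytes the effect in males minus that in females was −0.44 (limma unadjusted p = 0.073). In astrocyte sub-clusters 0 to 4, outside this count, it was −0.47, 0.58, 0.61, −0.77 and −0.60. The smallest p was that of sub-cluster 3 (limma unadjusted p = 0.0031, adjusted p = 0.47), and none was called.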

How the data were processed

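The authors deposited raw UMI counts for each gene in each nucleus, without normalization, from 10x libraries read with bcl2fastq 2.20.0.422, STAR 2.5.1b and Cell Ranger 3.1 on a pre-mRNA reference of mm10 (versions per the submitters' processing notes). The authors assigned nuclei to mice with hashtags in Seurat 4.0.3, removed low-quality nuclei, nuclei with ambiguous or no hashtag and mitochondrial genes, and gave cell types and sub-clusters from clustering of integrated data. Doublets within 1 mouse were not marked, and no caller was run here. The percent of mitochondrial UMIs per nucleus is the deposited value. Authors' normalized, integrated values were not used.

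UMIs were summed per mouse and type or sub-cluster. Following the study's methods, genes were filtered with filterByExpr, scaled with TMMwsp factors and tested with limma (voom), with a term per group of sex and genotype and a term per pool, at FDR < 0.1. Chosen here were the versions (limma 3.58.1, R 4.3.3), the minimum count of 10, robust eBayes and Benjamini-Hochberg adjustment over all genes of a type. Differences between types were tested on log2 CPM differences within each mouse (prior count of 2). edgeR 4.0.16 and DESeq2 1.42.0 were alternatives. Scripts were tested on simulated data. Counting precision was set by the UMIs per mouse within a type, 294711 to 1743993 in astrocytes and 27658 to 651446 in motor neurons.

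Pairing comes from the pools, which the labels give as shared batches. Deviations from group means correlated with a median r of 0.030 (astrocytes), 0.116 (oligodendrocytes), 0.020 (motor neurons) and 0.246 (neurons) for mice of the same pool. The medians for other pools were −0.014, −0.051, −0.000 and −0.129. Deviations from a group mean cancel over the mice of that group, which ties the latter values to the former. They are therefore no separate support for pairing. An r over 0.1 was reached by 4, 9, 2 and 12 of 18 same-pool pairs in these types.

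Named were the 7 genes, every gene of the pathway lists that was called, the 5 others of smallest unadjusted p in astrocytes and in oligodendrocytes (1 of them is not reported here), and the 3 genes most like each of the 7. The genes, lists and tests were chosen with earlier results of these data known. The starts used for the promoter windows are those of RefSeq on GRCm38.p6.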

Additional observations from a re-analysis of the deposited data

Results flagged for a closer look

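In groups of 6 mice, the gap between the highest or lowest mouse and its neighbour was compared with the range of the group by Dixon's ratio. Of 52 groups tested 2 were flagged, which is no more than the rate of about 1 in 20 that chance gives. Both were Hmgcs1 in the same mouse, female WT B. In oligodendrocytes of WT mice Hmgcs1 stood at 110 normalised CPM in this mouse and between 62.0 and 80.1 in the remaining 5 WT mice. In neurons its level was 32.9 normalised CPM, against 24.5 to 27.3 in the remaining 5. The cause was not tested.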

How the results depend on the processing

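Without the replicate block of pools, 0 of 7 genes were called in astrocytes (2 with it) and 0 in the other 8 cell types (1 with it), and 105 in place of 214 of all astrocyte genes and 40 in place of 157 of all motor neuron genes. The block changed no other count of calls among the 7 genes and the pathway lists. Astrocyte calls were 1 without a filter on low counts and 1 with nuclei weighted equally (Apoe in both), and 0 with fixed sub-cluster weights, an alternative chosen after seeing the data. In the other 8 types there were 0 calls by edgeR and 0 with nuclei weighted equally. With no filter, 1 gene was called in astrocyte sub-clusters (Apoe in sub-cluster 3) and 1 for sex (Abca1 in motor neurons). Pathway calls in astrocytes were 2 with nuclei weighted equally (Clu and Npc2) and 0 with fixed weights. Leaving out each mouse gave 0 to 2 calls in astrocytes, 0 to 1 in the other types, 0 to 1 for sex and 1 to 2 pathway calls in astrocytes. Without female SOD1G93A A, Apoe in microglia was called for sex. Of values near 0 that changed sign, Abca1 in astrocytes had log2 fold changes of 0.084 without scaling factors, 0.032 at a minimum count of 30 and 0.059 with nuclei weighted equally (−0.058 to 0.046 without single mice), and Fdft1 had 0.079 with fixed weights. In oligodendrocytes Apoe had 0.22 with fixed weights and Sqle 0.083 with nuclei weighted equally. Without single mice, Sqle ranged from −0.16 to 0.25 in astrocytes and, in oligodendrocytes, from −0.17 to 0.087, Apoe from −0.20 to 0.021, Fdft1 from −0.15 to 0.046 and Hmgcs1 from −0.19 to 0.13. The cause of these changes was not tested. All-gene motor neuron calls were 157 by limma, 72 by edgeR, 117 by DESeq2, 457 with no filter, 51 at a minimum count of 30 and 1 with nuclei weighted equally, and oligodendrocyte calls were 5 by limma and 13 by DESeq2. Without single mice, all-gene calls were 80 to 396 in astrocytes, 52 to 260 in motor neurons and 3 to 15 in oligodendrocytes. Equal weights were not run for sub-clusters. Motor neurons, with 1 to 11 nuclei per mouse, and ependymal cells and fibroblasts limit what could be detected.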
